A study of Mus musculus with 9 samples.

Results

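The genes followed here are 10 that cells switch on in answer to type I interferon, the cytokine family made when virus or other foreign nucleic acid is sensed: Irf7, Oas1a, Oasl2, Oas2, Ifit1, Ifit3, Rsad2, Rtp4, Usp18 and Isg15. Members were the probe sets that the platform annotation gives to exactly 1 of these symbols. That gave 12 of 45101 probe sets and 9 of the 10 genes, out of 18193 genes with such a probe set. The 1 probe set that carries the Isg15 symbol is annotated to a further gene too, so Isg15 has no value here. All 12 passed the filter on dim probe sets. The genes were selected on differences between the groups in these same intensities, above all lower values in Rag1 than in B6 tissue, so the differences from B6 are given below as a description, with their errors. Counts of genes past a threshold in those comparisons only describe the fit, and nothing is read from them. BP minus Rag1 uses the same Rag1 arrays, so its p-values and counts are not independent evidence either.

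Transcripts of the distal small intestine were measured on Affymetrix arrays, 10 days after the mice had received Bacteroides thetaiotaomicron, a common gut bacterium. Pieces 10, 11, 12 and 14 of 16 pieces of the small intestine were pooled for each sample, so epithelium, immune cells, muscle and nerve are measured together, and fewer cells of a type cannot be told apart from less RNA per cell. There were 3 groups of 3 arrays: BP, whose tissue the labels describe as Rag1 and whose added name they do not spell out; Rag1, from mice named for the gene needed to assemble antibodies and T cell receptors; and B6, the wild type. The labels give no allele, age, sex or treatment beyond the colonization that all groups share, and they do not say whether each array is a separate mouse, so p-values reflect only how these samples spread, which may be technical.

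Type I interferons bind the receptor IFNAR1/IFNAR2, whose kinases activate a transcription factor complex that includes STAT2 and IRF9. The complex enters the nucleus and binds a short DNA element, the interferon-stimulated response element, in front of the antiviral genes. In the gut, epithelial cells also answer to interferon lambda, which uses another receptor and the same complex, while interferon gamma, made by T cells and natural killer cells, has its own receptor and induces an overlapping set of genes. Among enterocyte markers, Vil1, a protein of the brush border, read 4396 to 5093 in BP tissue, 5619 to 5770 in Rag1 tissue and 5530 to 6270 in B6 tissue. Fabp6, the bile acid binding protein of the ileum, read at least 2313 on every array. Slc10a2, the bile acid transporter of the ileum, was dim, at 19.5 to 68.7 in BP tissue, 10.5 to 98.0 in Rag1 tissue and 14.9 to 27.4 in B6 tissue. The mean log2 level of 15 tested enterocyte markers, after the normalization described below, was 11.97 to 12.06 in BP tissue. It was 11.84 to 11.98 in Rag1 tissue and 11.98 to 12.05 in B6 tissue. Their median log2 difference in BP minus Rag1 was 0.055, with 9 positive and 6 negative.

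A few promoters of the members are printed to show the element through which these genes are known to be induced. RefSeq promoter windows of build GRCm38.p6 were found for 7 of the 10 genes. The core of the element, GAAA, any 2 bases and GAAA again, was searched on both strands in the 250 bases before the gene start. It was present in 5 of 7 windows, against 3.46% of 27025 genes. Capitals mark the matches, and each sequence runs 5′ to 3′ on the strand of its gene.
Ifit1, chr19:34640760-34640838, plus strand: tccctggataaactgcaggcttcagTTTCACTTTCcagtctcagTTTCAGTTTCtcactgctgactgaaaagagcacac
Rsad2, chr12:26456538-26456597, minus strand: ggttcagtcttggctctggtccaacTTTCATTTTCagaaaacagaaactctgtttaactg
Isg15, chr4:156200850-156200921, minus strand: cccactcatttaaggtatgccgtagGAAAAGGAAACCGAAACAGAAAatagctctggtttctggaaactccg
Ifit1 holds 2 matches, which begin 104 and 85 bases before the start, in the reverse orientation. Rsad2 holds 1, also in reverse, 120 bases before the start. In Isg15, 3 forward matches overlap in 1 run that begins 78 bases before the start. The windows of Ifit3 and Oas1a hold 2 matches each, and those of Irf7 and Oasl2 hold none. The same core was present in 12 of 39 windows of other antiviral genes (30.8%) and in 11 of 18 windows of genes that interferon gamma induces (61.1%), so it was not found in the members alone.

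The Rag1 transcript itself was too dim to be tested, at 2.87 to 22.8 in BP tissue, 1.37 to 2.69 in Rag1 tissue and 3.54 to 17.6 in B6 tissue. Igha, the heavy chain of IgA, separated B6 from the other groups and read 54.5 to 111 in BP tissue, 83.4 to 93.4 in Rag1 tissue and 2583 to 6389 in B6 tissue. Arrays also differed in RNA quality measures. The beta-actin 3′ over 5′ ratio, larger where RNA is shorter, was 14.2, 2.43 and 20.2 on BP replicates 1, 2 and 3, between 1.53 and 1.77 for Rag1, and 3.25, 1.76 and 4.17 on B6 replicates 1, 2 and 3. BP replicate 2 was the brightest array, with a trimmed mean intensity of 141 against 100.3 to 122 elsewhere. Xist, the RNA that coats the silenced X of female cells, read 36.0, 624 and 1735 on BP replicates 1, 2 and 3, 5.84 to 24.1 in Rag1 tissue and 1086 to 1539 in B6 tissue, so sex-linked signal differed between the groups and within BP. Over all tested probe sets the median log2 SD was 0.44 among BP arrays, 0.21 among Rag1 arrays and 0.23 among B6 arrays.

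Most of the antiviral genes were higher on the BP arrays than on the Rag1 arrays, and most were lowest on the Rag1 arrays. Against Rag1, 6 of 9 genes rose in BP tissue (Rtp4, Oas1a, Rsad2, Ifit1, Oasl2 and Irf7), and 0 fell. Across all 13570 tested genes, 1.1% rose, 2.17% fell and 3.26% changed in either direction at an adjusted p under 0.05. The median log2 difference of the 9 genes was 1.28, beside -0.016 over all tested genes. The genes were chosen with their low Rag1 values known, so this contrast with all genes is a description. A gene is represented by its brightest tested probe set. Log2 differences are of quantile-normalized log2(intensity + 16) values and understate the change of dim genes, while the values given array by array are the intensities as deposited.

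**Figure D1:**
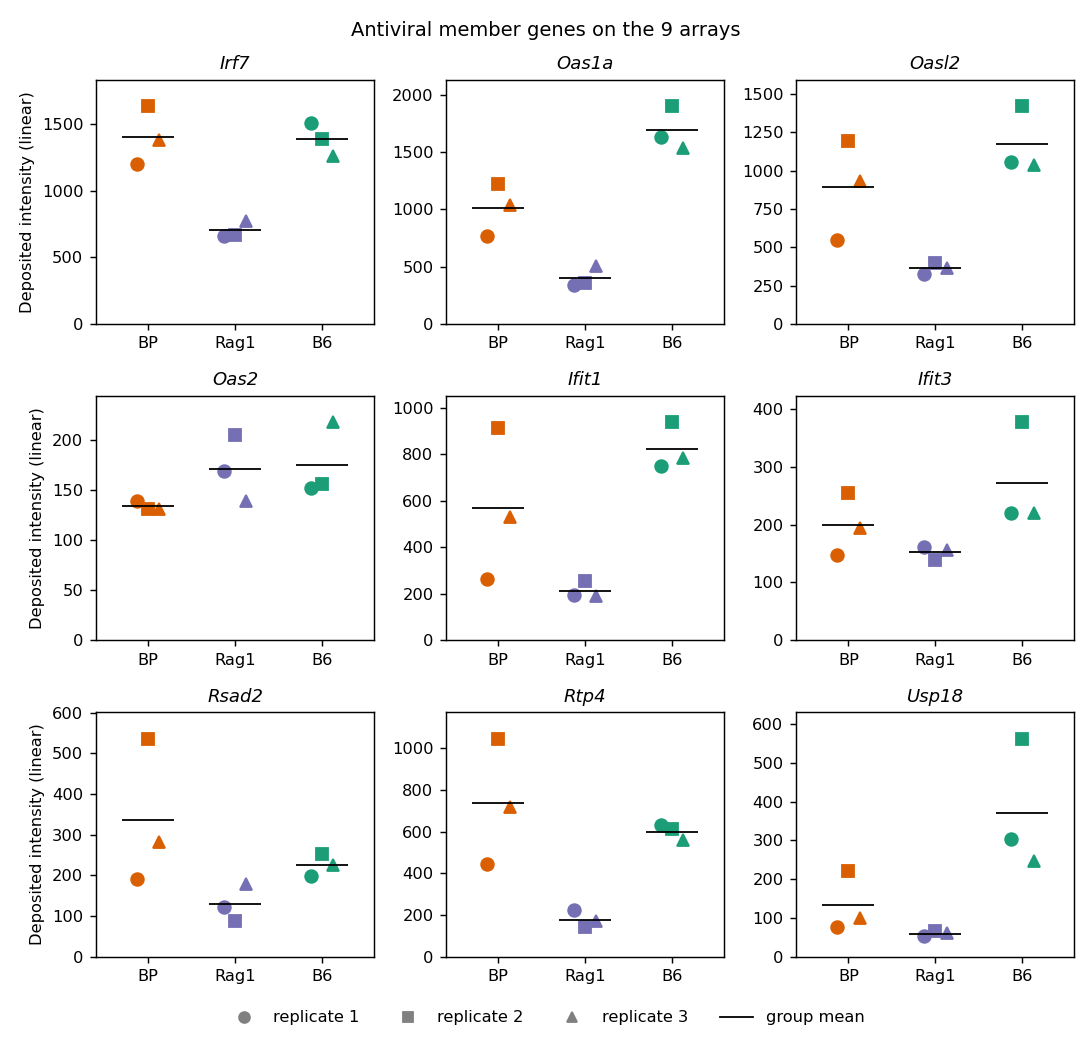
Deposited linear intensity (vertical axis, from 0) of 9 member genes on each array, by group (BP, Rag1, B6). Symbols mark the replicate and the line is the mean of 3 arrays. In 7 of 9 genes all BP arrays lie above all Rag1 arrays, and in 8 of 9 all Rag1 arrays lie below all B6 arrays; Oas2 does neither.

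Irf7 is the transcription factor that amplifies the response by driving further interferon genes. It read 1197, 1635 and 1382 on BP replicates 1, 2 and 3, 659, 668 and 774 on the Rag1 arrays, and 1505, 1388 and 1258 on the B6 arrays. Every BP array lay above every Rag1 array, while BP and B6 overlapped. The BP minus Rag1 difference was 1.03 ± 0.15 (SE, n = 3 per group), a 2.04-fold rise (adjusted p = 0.0099). Each SE comes from the 1 fit over all 3 groups. It is therefore the same in all 3 comparisons of a probe set and does not show how the groups differ in spread. From B6 the Rag1 arrays differed by -0.98 ± 0.15 and the BP arrays by 0.06 ± 0.15, so the BP level lay within its error of the B6 level.

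The oligoadenylate synthetases sense double-stranded RNA, and those that are active enzymes make the messenger that switches on RNase L. Oas1a read 771, 1218 and 1035 on the BP arrays, 336, 360 and 504 on the Rag1 arrays, and 1632, 1904 and 1534 on the B6 arrays. The 3 groups did not overlap, with BP between Rag1 and B6. Oas1a rose by 1.37 ± 0.20 in BP over Rag1 (2.59-fold, adjusted p = 0.00982). The differences from B6 were -2.09 ± 0.20 for Rag1 and -0.72 ± 0.20 for BP. The mouse has near-identical copies of Oas1a, and the sources used here do not show whether this probe set reads them too.

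Oasl2, a relative of the same family, read 545, 1195 and 929 on the BP arrays, 326, 396 and 364 on the Rag1 arrays, and 1054, 1422 and 1036 on the B6 arrays. BP replicate 1 was the lowest of its group and still above all Rag1 arrays, and BP replicate 2 reached the B6 range on deposited intensities. After normalization BP replicate 2 lay below the lowest B6 array (9.98 against 10.03), and BP replicate 3 reached the B6 range (10.06). The rise over Rag1 was 1.28 ± 0.24 (2.42-fold, adjusted p = 0.020). Rag1 differed from B6 by -1.70 ± 0.24 and BP from B6 by -0.42 ± 0.24. Oas2, which sits in the same gene cluster as Oas1a, did not follow. It read 139, 130 and 131 on the BP arrays, 169, 205 and 139 on the Rag1 arrays, and 151, 156 and 217 on the B6 arrays. BP and Rag1 overlapped, and the differences were -0.20 ± 0.26 for BP minus Rag1 (adjusted p = 0.744), -0.14 ± 0.26 for Rag1 minus B6 and -0.34 ± 0.26 for BP minus B6.

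The IFIT proteins bind foreign RNA and block its translation, and their genes lie side by side. Ifit1 read 263, 914 and 531 on the BP arrays, 194, 256 and 191 on the Rag1 arrays, and 751, 938 and 783 on the B6 arrays. On deposited intensities the BP arrays spread from just above the Rag1 range on replicate 1 to the B6 range on replicate 2. After normalization replicate 2, the brightest array, lay just below the lowest B6 array (9.604 against 9.606). Ifit1 rose by 1.31 ± 0.31 over Rag1 (2.47-fold, adjusted p = 0.0406), and differed from B6 by -1.96 ± 0.31 in Rag1 and by -0.65 ± 0.31 in BP. Its log2 SD was 0.68 among BP arrays, 0.32 among Rag1 arrays and 0.16 among B6 arrays, which the shared SE does not show. Ifit3 read 147, 255 and 195 on the BP arrays, 162, 140 and 156 on the Rag1 arrays, and 221, 378 and 221 on the B6 arrays. Its BP replicate 1 lay inside the Rag1 range on deposited intensities, and after normalization above the highest Rag1 array (7.55 against 7.32). The BP minus Rag1 difference was 0.47 ± 0.24 and did not pass (adjusted p = 0.302); Rag1 differed from B6 by -0.85 ± 0.24 and BP from B6 by -0.38 ± 0.24.

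Rsad2 encodes viperin, a radical enzyme that stops viral replication. Its brightest probe set read 192, 537 and 281 on the BP arrays, 123, 87.3 and 178 on the Rag1 arrays, and 199, 251 and 226 on the B6 arrays. All BP arrays lay above all Rag1 arrays, and BP replicates 2 and 3 above all B6 arrays as well. The rise over Rag1 was 1.36 ± 0.29 (2.56-fold, adjusted p = 0.0296), Rag1 minus B6 was -0.91 ± 0.29 and BP minus B6 was 0.45 ± 0.29. The 2 dimmer probe sets of Rsad2 did not pass, with BP minus Rag1 differences of 0.66 ± 0.33 (adjusted p = 0.293) and -0.04 ± 0.33 (adjusted p = 0.963). Averaged over its 3 probe sets, Rsad2 differed by 0.66 with an adjusted p of 0.202, so its call rests on 1 probe set.

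Rtp4, an interferon-induced receptor transporter protein, had the largest rise of the 9 genes. It read 446, 1046 and 716 on the BP arrays, 221, 140 and 172 on the Rag1 arrays, and 631, 610 and 557 on the B6 arrays. Every BP array lay above every Rag1 array, and BP replicates 2 and 3 lay above every B6 array. The rise over Rag1 was 2.01 ± 0.24 (4.02-fold, adjusted p = 0.00496), while Rag1 differed from B6 by -1.77 ± 0.24 and BP from B6 by 0.24 ± 0.24. Its dimmer probe set read 79.1, 46.1 and 44.2 on the BP arrays, 36.0, 41.6 and 11.6 on the Rag1 arrays and 54.0, 66.6 and 60.2 on the B6 arrays, and did not pass (0.73 ± 0.34 for BP minus Rag1, adjusted p = 0.263).

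Usp18 removes ISG15 from proteins and damps signalling at the interferon receptor. It read 75.6, 221 and 98.9 on the BP arrays, 51.7, 65.5 and 60.4 on the Rag1 arrays, and 303, 563 and 248 on the B6 arrays. The 3 groups did not overlap. BP stood nearer to Rag1 than to B6: the BP minus Rag1 difference of 0.98 ± 0.32 did not pass (adjusted p = 0.113), BP minus B6 was -1.39 ± 0.32, and Rag1 minus B6 was -2.37 ± 0.32, the largest of any member.

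**Figure D2:**
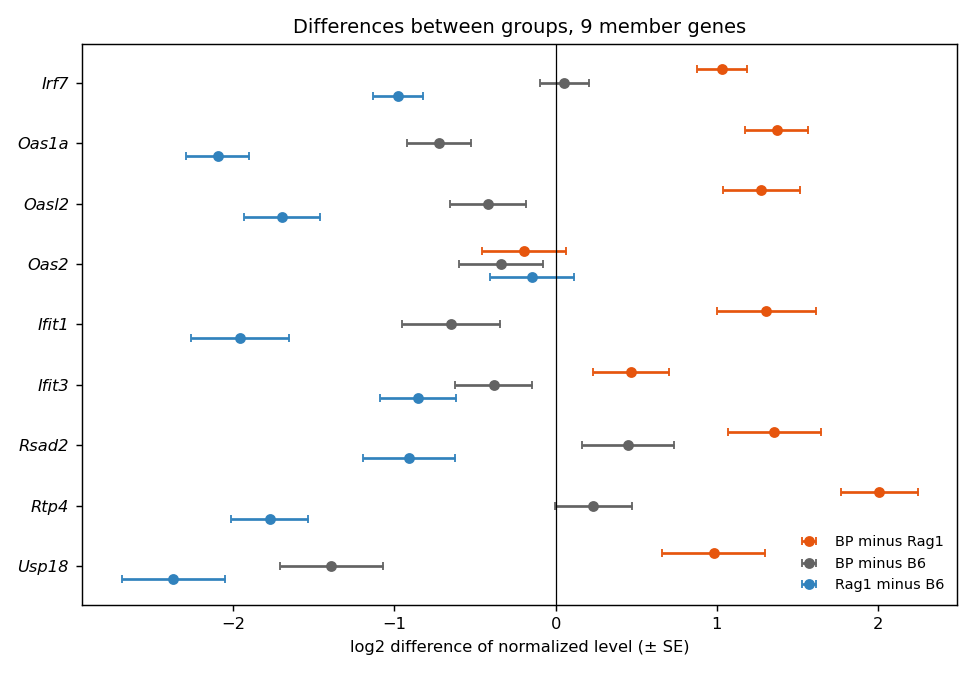
Log2 difference of normalized level (horizontal axis) with its SE for 9 member genes and the 3 comparisons, 3 arrays per group. BP minus Rag1 is 0.47 or more in every gene except Oas2 (-0.20), and Rag1 minus B6 is -0.85 or less in every gene except Oas2 (-0.14). BP minus B6 runs from -1.39 in Usp18 to 0.45 in Rsad2.

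The order of the mean normalized levels was B6, then BP, then Rag1 for Oas1a, Oasl2, Ifit1, Ifit3 and Usp18, and BP, then B6, then Rag1 for Irf7, Rsad2 and Rtp4. For Oas2 it was B6, then Rag1, then BP, with neighbours within their errors. The BP and Rag1 neighbours did not differ past the threshold in Ifit3, Usp18 and Oas2. The BP and B6 neighbours in that order did not differ past the threshold in any gene: limma called 0 of 9 at an adjusted p under 0.05, where 0.582% of all genes were called, and 2 of 9 had an unadjusted p under 0.05, where 13.9% of all genes did. The median BP minus B6 difference was -0.38. On deposited intensities 3 of 9 genes had every BP array below every B6 array, which 10.2% of genes had. Without BP replicate 2 limma called 3 of 9 genes lower in BP than in B6. The share of all genes called in that fit is not given, so nothing is read from this count. Over fits that leave out 1 array, the calls among all tested probe sets in BP minus B6 ranged from 56 to 3046. For Rag1 minus B6 the median was -1.70, 6 of 9 genes were called lower where 0.317% of all genes were, and 8 of 9 had every Rag1 array below every B6 array where 6.09% of genes had. That comparison shares its B6 arrays with BP minus B6 and its Rag1 arrays with BP minus Rag1, and it was known when the genes were chosen, so nothing is read from its counts. The count of 6 was 2, 3 and 2 without Rag1 replicates 1, 2 and 3, and 2, 2 and 3 without B6 replicates 1, 2 and 3.

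The count of 6 genes that rose in BP over Rag1 also depended on single arrays. It was 1 without Rag1 replicate 1 and 1 without Rag1 replicate 2, 3 without BP replicate 3, and 3 when only the BP and Rag1 arrays were fitted. The median log2 difference of the 9 genes lay between 1.03 and 1.54 over all 24 alternatives, and Rtp4 passed in each of them. Because results of these arrays were known when the genes were chosen, these p-values are not independent evidence. All BP arrays lay above all Rag1 arrays in 7 of 9 genes on deposited intensities, which 7.61% of genes did. Within the BP group, replicate 1 was the lowest array in 8 of 9 genes and replicate 2 the highest in 8 of 9. After normalization the mean of the 9 genes lay 0.73, 1.25 and 1.22 above the Rag1 mean on BP replicates 1, 2 and 3, on the log2 scale, so replicates 2 and 3 were nearly level and replicate 1 lower.

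The technical and sex-linked signals that moved with these groups can be set beside each array. BP replicate 2, with an actin ratio of 2.43, was above every Rag1 array in 8 of 9 genes on deposited intensities. A fit with BP replicates 1 and 3 left out holds 1 BP array, the brightest of all. It takes its spread from the other groups, so it is no test of the BP group. B6 replicate 2, whose actin ratio of 1.76 was like that of the Rag1 arrays, was the highest B6 array in 6 of 9 genes. With the ratio as a covariate 7 of 9 genes rose over Rag1. The ratio was itself higher on every BP array than on every Rag1 array, so the covariate is tied to the groups. Over the 24 alternatives the calls among all tested probe sets ranged from 18 to 6410 for BP minus Rag1. The count of 7 is given without the share of all genes in its fit, so nothing is read from it. The Xist signal of BP replicate 1 was near that of the Rag1 arrays, while its Eif2s3y and Kdm5d signals lay below all of theirs. On deposited intensities this array was above every Rag1 array in 7 of 9 genes. It was below every B6 array in 9 of 9, but was also among the dimmer arrays, with a trimmed mean intensity of 100.9. After normalization its Irf7, Rsad2 and Oas2 levels lay above the lowest B6 array (10.37 against 10.29, 7.87 against 7.84 and 7.47 against 7.41). No share over all genes was taken for single arrays. The part of sex in these differences was not tested.

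In BP minus Rag1 the other antiviral genes on the array had a share of calls near that of all genes. Of 39 other tested antiviral genes, 1 rose in BP over Rag1 and 0 fell, or 2.56% against 3.26% of all genes. The gene that rose was Ifi35 (1.04 ± 0.17, adjusted p = 0.0134). The list's median was -0.03, with 19 positive and 20 negative differences. Values differed widely: Trim30a, a ubiquitin ligase family member, was at 1.08 ± 0.39, while Mx1, a GTPase that traps viral particles, was at -0.73 ± 0.39, and Zbp1, a sensor of Z-form nucleic acid, at -0.73 ± 0.33, none of which passed. For Rag1 minus B6 the list's median was -0.32, with 33 of 39 negative, and for BP minus B6 -0.54, with 29 of 39 negative. Sp100, a nuclear body protein, was the 1 gene called in each, at -1.48 ± 0.24 and -1.66 ± 0.24. That is 2.56% of the list, where 0.391% and 0.582% of all genes were called. By limma 10 and 17 of 39 had an unadjusted p under 0.05, where 787 and 1893 of 13570 genes did.

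The lists upstream of the members had shares of calls that can be read only against those of all genes. The sensors and their adaptors had 0 of 15 genes called in BP minus Rag1 by limma, and 4 of 15 at an unadjusted p under 0.05, where 19.1% of all genes were, with Ifih1, which encodes the RNA sensor MDA5, at 0.51 and Ddx58, which encodes RIG-I, at -0.44. Among receptors and signalling factors 1 of 15 fell (6.67%, where 2.17% of all genes fell), Irf8 (-1.12 ± 0.23, adjusted p = 0.0258), a factor of myeloid and plasmacytoid dendritic cells. The receptor chains Ifnar1 and Ifnar2 were at -0.46 and -0.10, and Stat2 and Irf9, which encode parts of the antiviral complex, at 0.00 and 0.03. Negative regulators other than Usp18 had 0 of 17 called by limma and 3 of 17 at an unadjusted p under 0.05, where 19.1% of all genes were, with Socs1, which blocks the receptor kinases, at -0.77. Of the ligands, 4 of 10 genes on the array were bright enough to test, and limma called 0 of 4, with 0 at an unadjusted p under 0.05. Ifnb1, the gene of interferon beta, was too dim to be tested and read 5.57 to 33.3 in BP tissue, 11.0 to 16.5 in Rag1 tissue and 11.8 to 19.8 in B6 tissue.

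Of 24 tested genes that interferon gamma induces, 0 rose and 3 fell in BP against Rag1, or 12.5% where 2.17% of all genes fell. They were Psmb8, an immunoproteasome subunit (-1.20 ± 0.18, adjusted p = 0.00982), Ido1, which degrades tryptophan (-1.05 ± 0.26, adjusted p = 0.0478), and Cd74, the class II invariant chain (-0.76 ± 0.18, adjusted p = 0.0399). Their median was -0.15 in BP minus Rag1, -1.53 in BP minus B6 and -1.04 in Rag1 minus B6, against 1.28, -0.38 and -1.70 for the antiviral members. Igtp, an immunity-related GTPase, read 127 to 485 in BP tissue, 218 to 243 in Rag1 tissue and 1265 to 3023 in B6 tissue, so that BP stayed with Rag1. Ifng itself was too dim to test, at 6.45 to 17.4 in BP tissue, 1.57 to 13.0 in Rag1 tissue and 2.23 to 22.4 in B6 tissue. The difference between the 2 lists was not tested.

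**Figure D3:**
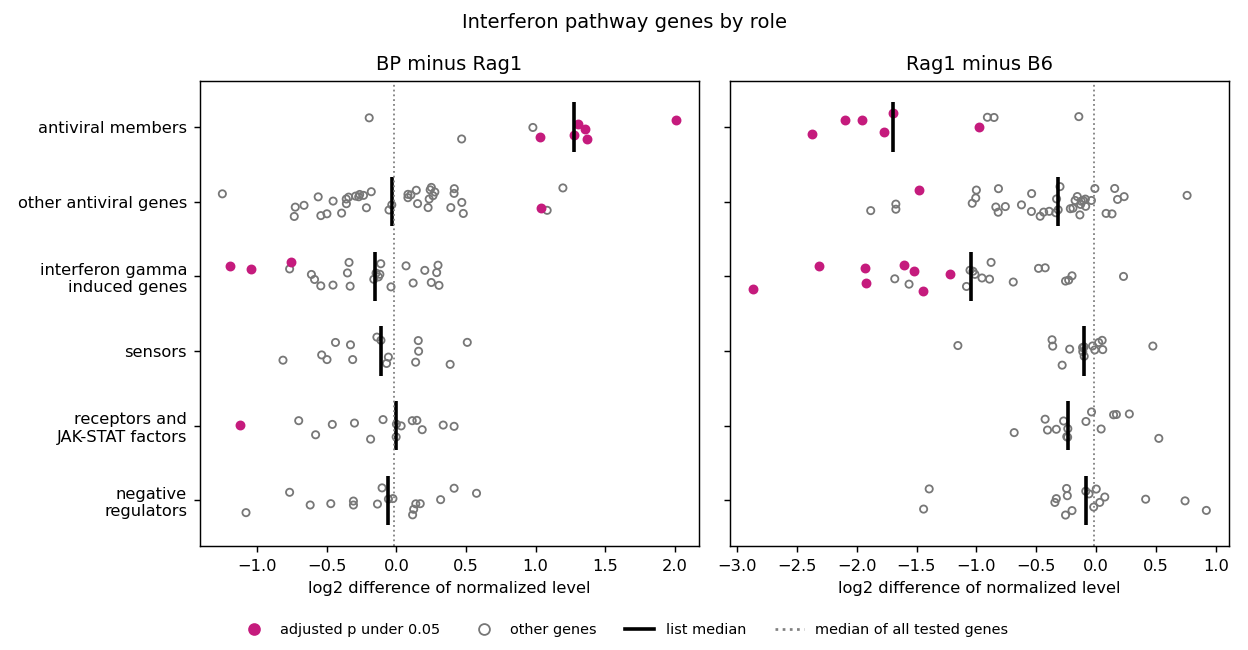
Log2 differences of normalized level (horizontal axis) for the tested genes of 6 lists (rows), in BP minus Rag1 and Rag1 minus B6. Filled points passed an adjusted p of 0.05, bars are list medians and the dotted line is the median of all tested genes. In BP minus Rag1 the members' median is 1.28, and the medians of the other lists run from -0.15 for the interferon gamma genes to 0.00 for the receptors.

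Markers of T cells stayed at the Rag1 level on the BP arrays. The summed intensity of 8 tested T cell markers was 315 to 399.85 in BP tissue, 323 to 351 in Rag1 tissue and 952 to 1086 in B6 tissue, and limma called 0 of 8 in BP minus Rag1, with 1 at an unadjusted p under 0.05, where 19.1% of all genes were. Cd3e, a signalling subunit beside the T cell receptor, read 16.2 to 44.6 in BP tissue, 21.3 to 27.3 in Rag1 tissue and 112 to 154 in B6 tissue. For 9 cytotoxic and natural killer cell markers the sums were 831 to 1433 in BP tissue, 1175 to 1607 in Rag1 tissue and 3559 to 4744 in B6 tissue, and 1 of 9 fell in BP (11.1%, where 2.17% of all genes fell), Prf1, the pore protein perforin (-1.71 ± 0.27, adjusted p = 0.0130). The 9 markers of plasmacytoid dendritic cells, the main interferon makers of blood, summed to 1105 to 1608 in BP tissue, 1624 to 1907 in Rag1 tissue and 1673 to 2374 in B6 tissue, with 1 of 9 called lower in BP than in Rag1 (11.1%), Irf8, which is on that list too. Siglech, which defines them, read 17.7 to 45.5 in BP tissue, 11.0 to 57.1 in Rag1 tissue and 12.0 to 37.2 in B6 tissue. Irf8 made up a large part of the plasmacytoid sum, at 329 to 562 in BP tissue and 919 to 1010 in Rag1 tissue. The list's median BP minus Rag1 difference was 0.13, with 6 of 9 positive. Its mean normalized log2 level overlapped, at 6.555 to 6.761 in BP tissue and 6.583 to 6.963 in Rag1 tissue. The 13 macrophage and dendritic cell markers summed to 7613 to 8383 in BP tissue, 7749 to 9019 in Rag1 tissue and 5517 to 8356 in B6 tissue, with 0 called by limma and 4 of 13 at an unadjusted p under 0.05, where 19.1% of all genes were. That sum is mostly Lyz2, the lysozyme of macrophages. The mean normalized log2 level of the same markers was 7.656 to 7.907 in BP tissue, 7.434 to 7.497 in Rag1 tissue and 7.234 to 7.583 in B6 tissue, so on that scale every BP array lay above every array of the other groups. Their median BP minus Rag1 difference was 0.26, with a highest value of 1.16 ± 0.30 in C1qb, a complement subunit made by macrophages (adjusted p = 0.0538). Deposited intensities are never below 1, so no marker could read 0, and low readings do not tell whether a cell type was present. The part of cell makeup in the members' differences was not tested.

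**Figure D4:**
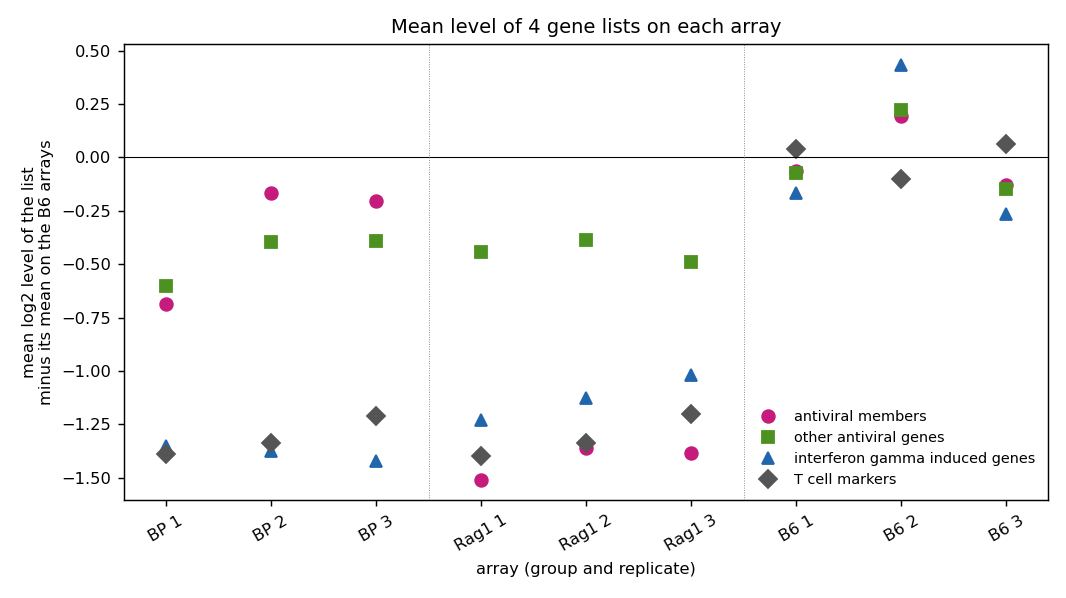
Mean normalized log2 level of 4 gene lists on each array (horizontal axis), less the list's mean on the B6 arrays (vertical axis). The antiviral members lie at -0.69, -0.17 and -0.20 on BP replicates 1, 2 and 3, against -1.36 to -1.51 on the Rag1 arrays, while the interferon gamma genes lie at or below -1.02 and the T cell markers at or below -1.20 on every BP and Rag1 array.

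The 9 genes resembled each other over the 9 arrays to different degrees. The correlation of a gene with the mean of the other 8 was 0.993 for Oasl2, 0.976 for Oas1a and 0.960 for Ifit1, lower for Rsad2 at 0.696, and -0.097 for Oas2. These values describe 9 arrays in 3 groups and carry no test. The 8 other genes whose pattern was most like the mean of the members, with Pearson r from 0.923 to 0.978, were Ces2g, Pck1, Gstp1, Xist, Slc20a1, Ddit3, Dbp and Trim30a. Of these only Trim30a stood on an interferon list. Ces2g, a carboxylesterase, was at 1.16 ± 0.24 in BP minus Rag1 and -1.32 ± 0.24 in Rag1 minus B6, and Pck1, the gluconeogenic enzyme, at 1.54 ± 0.30 and -2.09 ± 0.30.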

How the data were processed

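Per the labels, 20 µg of total RNA from each pooled tissue sample was hybridized to an Affymetrix array. The deposited values give 1 linear intensity per probe set and array, never below 1; the software and scaling by which the authors made these intensities are not given in the sources used here. All 9 columns were matched to samples by their labels. Gene symbols came from the platform annotation: of 45037 probe sets that are not controls, 34945 had 1 symbol, 932 several and 9160 none, and 34741 of those with 1 symbol matched RefSeq.

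From these values log2(intensity + 16) was taken and then quantile-normalized. The 40% of probe sets with the lowest mean, below 5.30 on the log2 scale, were left out. One limma fit (limma 3.58.1 in R 4.3.3, with data.table version 1.17.8) over the 9 arrays, with 6 residual degrees of freedom, an intensity trend and Benjamini-Hochberg adjustment over 27022 probe sets, gave the 3 comparisons. The threshold was an adjusted p of 0.05. The fit was run on simulated data in which all groups shared 1 spread per probe set. The BP arrays spread more than the others, so that run does not show how the fit behaves here. With 3 arrays per group their number limits the precision.

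The members and lists were chosen with earlier results of these data known. Named were all members, up to 3 called genes per list and direction or else the 2 with the smallest p, ligands, receptors and factors of the pathway, and the 8 genes most like the members by Pearson r over 9 arrays. Further genes, among them Mx1, Zbp1, Ifih1, Ddx58, Socs1, Cd3e, Igha, Siglech, Lyz2, C1qb, Vil1 and Fabp6, were named after their values were seen. Alternatives covered scaling, pseudocount, filter, array weights, the replicate block, an actin covariate, the average over probe sets and left-out arrays.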

Additional observations from a re-analysis of the deposited data

How the results depend on the processing

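Over 24 alternatives no called member changed sign. The number of the 9 genes called ranged, over fits that leave out 1 array, from 1 to 6 for BP minus Rag1, from 0 to 3 for BP minus B6 and from 2 to 6 for Rag1 minus B6. For BP minus Rag1 it was 3 when only the 2 groups compared were fitted and 3 with B6 replicates 1 and 3 left out. For BP minus B6 it was 1 with each array centred on its median, 1 with array weights, 2 with BP replicates 1 and 3 left out and 1 with B6 replicates 1 and 3 left out as well. For Rag1 minus B6 it was 0 by limma with B6 replicates 1 and 3 left out, where 7 had an unadjusted p under 0.05; the lone array is assumed to vary like the other groups. The settings that leave out B6 arrays were chosen after seeing the data. Fits that leave out arrays hold fewer samples, and the cause of these changes in count was not tested.

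In BP minus Rag1, Rtp4 passed in all 24 (adjusted p 7.75e-05 to 0.0459), Oas1a and Irf7 in 22 each, Oasl2 in 18, Rsad2 in 15 and Ifit1 in 13, while Usp18 passed in 4. Over all probe sets the count of calls was 1027 (729 lower, 298 higher), and 18 without Rag1 replicate 1, with a range of 18 to 6410; it ranged from 30 to 5700 around 171 for BP minus B6, and from 19 to 1050 around 89 for Rag1 minus B6. Centring on the median gave 1054 lower and 158 higher for BP minus Rag1 and moved the median of all genes in BP minus B6 to -0.15.

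With the replicate block 6, 0 and 5 genes were called for BP minus Rag1, BP minus B6 and Rag1 minus B6. Same-numbered arrays deviated together with r of -0.19 to -0.031, 0.062 to 0.23 and -0.095 to 0.057 in these comparisons, and 0, 2 and 1 of 3 correlated best with their own number, so the numbers were not treated as pairs.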
